A study of Rattus norvegicus with 40 samples.

Results

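DNA methylation in the kidney T cell preparations of Dahl salt-sensitive rats was compared between 10 and 7 weeks of age. Every region of the deposited table for this contrast was taken, 48640 regions of the 630893 listed over all 15 tables of the series. Both groups were SS/MCW rats (Dahl SS/JrHsdMcwi, inbred rats that become hypertensive on salt) fed LS chow, read here as low salt. Each age had 4 pools of 3 rats, so that 8 of the 40 libraries of the series entered. The study's other rats were SS/MCW on HS chow (3 weeks per the labels) and SS/CRL (Dahl SS/JrHsdMcwiCrl) on LS or HS chow, all at 10 weeks. Blood T cells of all these rat groups, also of SS/MCW rats on LS chow at 7 and 10 weeks, gave further libraries. The assay was reduced representation bisulfite sequencing, which reads cytosine methylation in the CpG-rich part of the genome. The labels name the cells kidney T cells and give no sort or gate. Different rats made up the ages, so age, pool and any batch cannot be told apart.

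A methyl group on the cytosine of a CpG dinucleotide is copied at cell division by Dnmt1, set anew by Dnmt3a and Dnmt3b, and removed by way of the Tet enzymes. Promoters rich in CpG mostly stay free of methylation, gene bodies and intergenic DNA mostly carry it, and each cell type has its own set of unmethylated enhancers and promoters. Imprinted genes are an exception, since the allele from one parent is methylated at their control regions in nearly all cells. A level given here is the authors' mean methylation of a region over the pools of a group, in percent, and a change is the authors' difference of 10 minus 7 weeks, in percentage points. A region was called lower or higher where its adjusted p in the table was under 0.05 and it changed by at least 10 points. The table holds means per age only, without the single pools or the reads behind them. The depth is therefore unknown, and no spread or interval can be given for a level or a change. Region positions are on rn5.

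Promoters of genes that changed differed widely in their content of CpG, as the RefSeq sequences of assembly GRCr8 show in windows of 300 bases around the start of each gene. The 4 below stand for a pair of imprinted genes with dense CpG promoters (Grb10, chr14:90816338-90816637, minus strand, and Plagl1, chr1:9297214-9297513, plus strand), a kidney and liver enzyme (Bhmt, chr2:26614380-26614679, minus strand) and a tubule transporter (Slc22a8, chr1:214927034-214927333, plus strand). Each CG is in capitals.
Grb10: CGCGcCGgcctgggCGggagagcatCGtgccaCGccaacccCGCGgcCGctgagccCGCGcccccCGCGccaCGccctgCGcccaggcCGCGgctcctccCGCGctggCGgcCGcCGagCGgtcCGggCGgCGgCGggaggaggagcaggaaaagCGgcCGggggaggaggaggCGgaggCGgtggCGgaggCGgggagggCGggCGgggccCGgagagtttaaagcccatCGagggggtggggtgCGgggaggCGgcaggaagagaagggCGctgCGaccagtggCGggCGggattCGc
Plagl1: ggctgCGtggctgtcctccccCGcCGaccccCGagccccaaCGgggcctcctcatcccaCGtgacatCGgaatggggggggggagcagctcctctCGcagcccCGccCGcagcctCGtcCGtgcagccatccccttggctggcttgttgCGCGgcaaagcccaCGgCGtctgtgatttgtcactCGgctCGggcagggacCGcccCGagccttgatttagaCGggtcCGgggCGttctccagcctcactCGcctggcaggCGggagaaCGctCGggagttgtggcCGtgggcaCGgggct
Bhmt: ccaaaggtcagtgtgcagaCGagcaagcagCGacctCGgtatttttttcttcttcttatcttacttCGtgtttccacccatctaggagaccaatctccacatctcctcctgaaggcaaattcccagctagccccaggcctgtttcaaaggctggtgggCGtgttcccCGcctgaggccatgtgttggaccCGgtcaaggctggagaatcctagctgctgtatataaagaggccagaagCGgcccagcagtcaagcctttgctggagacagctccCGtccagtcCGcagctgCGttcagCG
Slc22a8: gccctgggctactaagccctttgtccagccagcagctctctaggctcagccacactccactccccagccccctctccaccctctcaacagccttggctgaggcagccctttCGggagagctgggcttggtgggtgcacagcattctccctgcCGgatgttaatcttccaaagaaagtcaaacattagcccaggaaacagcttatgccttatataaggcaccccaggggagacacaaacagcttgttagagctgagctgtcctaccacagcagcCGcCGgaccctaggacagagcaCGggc
These 300 bases held 44 CG in Grb10, 29 in Plagl1, 12 in Bhmt and 5 in Slc22a8, against a median of 8 over all 27457 RefSeq promoters, of which 97.9% held fewer than Grb10 and 87.2% fewer than Plagl1. CG reads the same on both strands and cannot overlap itself. At least 10 CG stood in 45.2% of all promoters. Genes with a region of the class TSS (at a transcription start) had a median of 23 CG (7017 of 8736 genes matched), and those with such a region lower at 10 weeks a median of 14 (152 of 194 matched). A median of 14 also held for the 390 matched genes with a start region between 20% and 60% at 7 weeks, called or not. The GRCr8 windows and the rn5 regions were not aligned with each other.

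Methylation was lower at 10 weeks at most regions that changed. Of the 48640 regions, 1645 were called lower, a share of 3.38%, and 100 were called higher, a share of 0.206%, so that 94.3% of the 1745 calls were decreases. The median decrease among calls was 14.5 points, from a median level of 40.8% at 7 weeks to 23.9% at 10 weeks, and 283 of the decreases reached 20 points. The median increase among calls was 12.2 points, from 41.6% to 55.8%, and 2 of the 100 reached 20 points. A level is a mean over all DNA of a pool, so that a change in the share of a cell type and a change of methylation within cells cannot be told apart. Over all regions the mean level was 15.6% at 7 weeks and 14.3% at 10 weeks, and the median change was -0.0011 points. Per gene, 721 of 9990 genes with a region had one called lower (7.22%), 45 had one called higher (0.45%), and 11 had both.

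The authors' tests have 3 limits. Their adjusted p reaches 1.63e-12, while 8 pools ranked exactly would give no p under 0.0286. CpGs of a pool therefore count as separate observations, and the p-values speak of these pools. The adjusted p alone passed 27772 regions, of which 81.3% differed by less than 1 point, and 7559 of them were listed at 0% at 10 weeks and 2.5e-05% at 7 weeks. Calls therefore rest on the minimum difference as well. The separate q-value of the authors passed far fewer of the calls, 41 of those lower and 1 of those higher, or 28 of 9990 genes with a lower region (0.28%). Of the regions given with an adjusted p below, the q-value was 1 for those of Slc22a6, Slc22a8, Ggt1, Hnf4a, Col4a1 and Arhgap30.

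Gene bodies carried the highest share of decreases. Of the 6534 regions the authors class as intragenic, 606 were lower (9.27%) and 31 higher, with a mean level of 36.2% at 7 weeks and 32.7% at 10 weeks and a median change of -2.33 points. Intergenic regions followed, with 829 of 17971 lower (4.61%) and 54 higher, and means of 26.0% and 24.0%. Start regions were mostly unmethylated at both ages, with means of 2.36% and 2.02%, and 210 of 24135 were lower (0.87%) and 15 higher. This order turned among regions that began at an intermediate level. Between 20% and 60% at 7 weeks, 181 of 618 start regions were lower (29.3%), against 458 of 1881 intragenic regions (24.3%) and 570 of 3152 intergenic regions (18.1%).

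**Figure D1:**
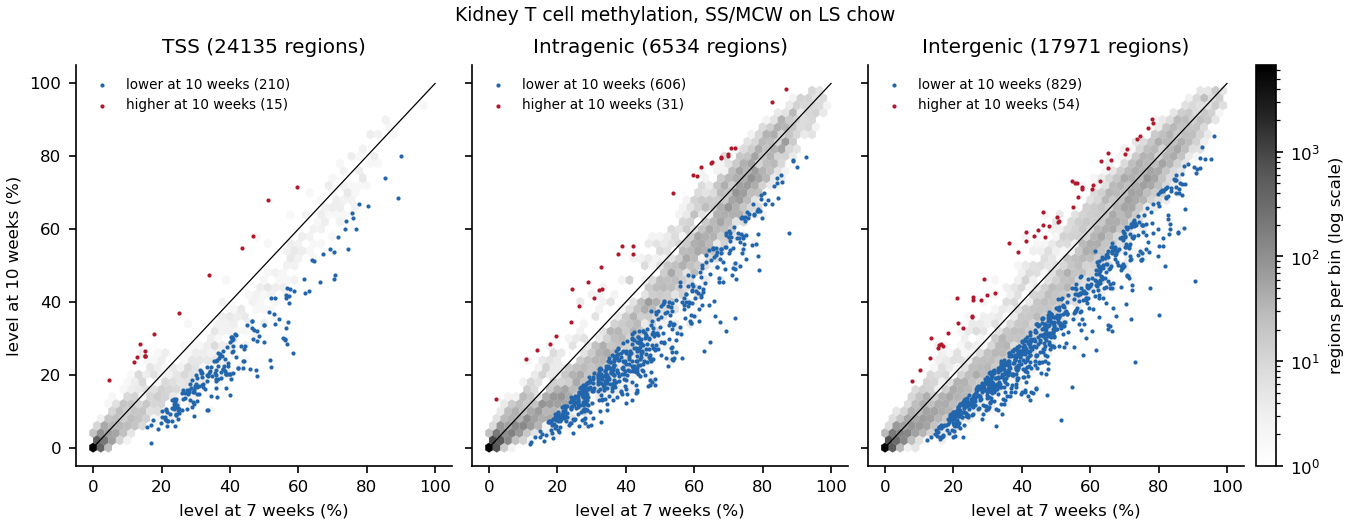
Methylation level of every region at 10 weeks (vertical axis, percent) against 7 weeks (horizontal axis, percent) in kidney T cell preparations, by the authors' region class; grey hexagons count regions on a log scale, blue points are regions called lower, red points regions called higher, and the line marks equal levels. Most called points lie under the line, with 210, 606 and 829 lower and 15, 31 and 54 higher in the TSS, intragenic and intergenic classes.

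The change was largest at intermediate methylation. Regions between 20% and 40% at 7 weeks had a median change of -7.30 points, 90.3% of these 2868 regions moved below 0, and 24.9% were called lower. Those between 40% and 60% had a median change of -6.79 points and 17.8% called lower. At 60% to 80% the median change was -3.19 points with 6.44% called lower, and at 90% to 100% it was -2.35 points with 2.96%. A region under 10% at 7 weeks cannot fall by 10 points, and 3 of 34534 such regions were called higher. Since the level at 7 weeks is part of the change itself, regions were also sorted by the kidney level of SS/CRL rats on LS chow, a setting added after seeing the data. The median change was then -7.11 points at 20% to 40% (1911 regions, 23.0% called lower), -6.22 at 40% to 60%, -3.38 at 60% to 80% and -1.85 at 80% and above. Sorted by the level at 10 weeks, the median at 80% and above was 1.54 points, while those at 20% to 40% and 40% to 60% were -7.50 and -6.13. All 20 autosomes had more lower than higher calls, with shares called lower from 2.62% on chromosome 18 to 4.91% on chromosome 20, and chromosome X had 2.24%.

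**Figure D2:**
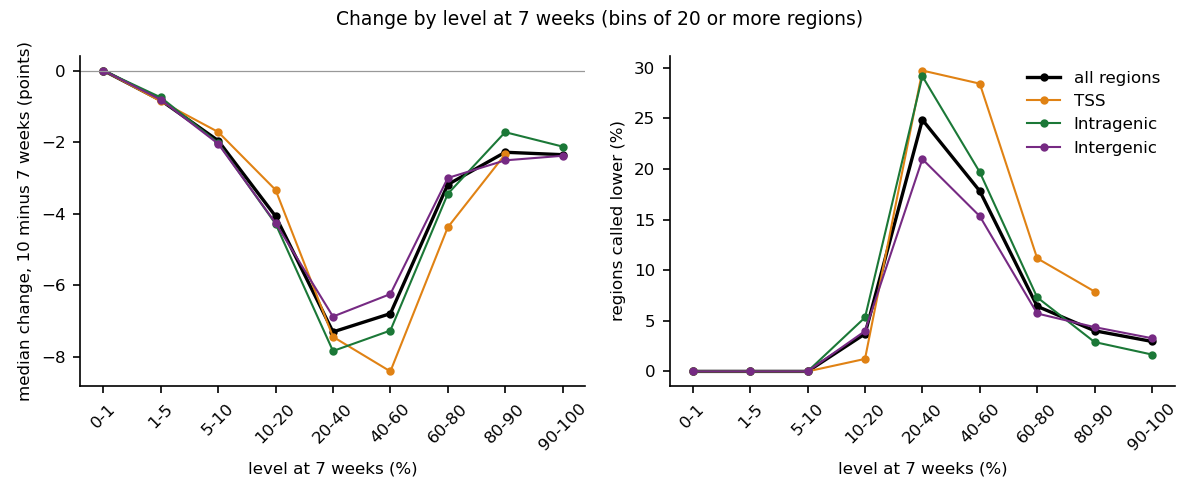
Median change from 7 to 10 weeks in percentage points (left) and percent of regions called lower (right) by methylation level at 7 weeks, for all regions (black) and for each region class (colours), in bins of at least 20 regions. Both curves are most extreme between 20% and 60%, where the median change over all regions was -7.30 and -6.79 points.

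Transporters and enzymes of the proximal tubule, the nephron segment that reclaims most filtered solute, often had a region of lower methylation at 10 weeks. Of the 26 tested genes of this list, 16 had a region called lower and 0 had one called higher, against 7.22% of all genes. With the authors' q-value under 0.05 the count was 1 of 26 (0.28% of all genes), and at a minimum of 20 points 4 of 26 (1.53% of all genes). The median change over the list's 63 regions was -4.31 points, against 0 over all 30669 regions with a gene, and 52 of the 63 were below 0. Among the 28 regions of the list between 20% and 60% at 7 weeks, 18 were lower and the median change was -14.8 points, against 639 of 2499 and -7.54 points for all genes in that range. No test of the list against other genes was made, and the part of tubule cells or their DNA in these preparations was not tested.

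The organic anion transporters of the tubule's basal membrane gave low levels at both ages. The start region of Slc22a6 (Oat1, chromosome 1, 231762983 to 231763590, 9 CpGs) was at 24.1% at 7 weeks and 11.2% at 10 weeks (the authors' deposited table, adjusted p = 0.00231). That of Slc22a8 (Oat3, chromosome 1, 231737074 to 231737181), whose CG-poor promoter is printed above, went from 24.3% to 9.00% (the authors' deposited table, adjusted p = 0.000441). In the tables of kidney against blood, blood T cells stood at 84.6% (7 weeks) and 86.2% (10 weeks) in Slc22a6 and at 86.4% and 92.5% in Slc22a8, so that kidney and blood lay far apart at both ages. Aqp1, the water channel of the tubule, fell at a start region from 36.5% to 18.8% and in its body from 42.7% to 21.0%, and was chosen after its values were seen.

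Several solute carriers and surface proteins of the list also had lower regions, while Slc34a1, Slc5a1, Slc4a4, Ace and Pdzk1, chosen after their values were seen, had none. The body of Ggt1, gamma-glutamyltransferase, was at 48.4% at 7 weeks and 17.2% at 10 weeks, the largest decrease of the list, and it fell by 31.2 points (the authors' deposited table, adjusted p = 4.67e-05). Slc3a1, a subunit of the cystine transporter, fell at a start region from 43.8% to 21.8% and in its body from 78.7% to 52.7%. Slc13a3, a dicarboxylate carrier of the basal membrane, went from 43.7% to 23.7% at its start, and Slc9a3, the sodium and proton exchanger of the brush border, from 47.6% to 28.2% in its body. Both were chosen after their values were seen. So were the peptidase Anpep (37.5% to 21.3%) and Cubn and Lrp2, the receptors that take up filtered protein. A start region of Cubn fell by 14.3 points to 10.6%. Lrp2 fell in 1 body region from 66.6% to 49.5%, while another one was at 50.2% and 58.1% and did not pass.

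Regulators and metabolic enzymes of the tubule completed the list. Hnf4a, a transcription factor of tubule and liver, fell at a start region from 46.0% to 21.6% (the authors' deposited table, adjusted p = 0.000368) and in its body from 32.6% to 14.5%. The start region of Khk, ketohexokinase, held 15 CpGs and went from 26.0% to 10.2%, and that of Pck1, a key enzyme of gluconeogenesis, from 36.1% to 18.9%. Both were chosen after their values were seen. Over the 20 lower regions of the list the levels ran from 23.6% to 78.7% at 7 weeks and from 9.00% to 52.7% at 10 weeks. Blood T cells had medians of 84.6% (19 regions) and 80.9% (20 regions) there at the 2 ages. The median blood change was 0.348 points over the 19, with single changes from -16.6 to 6.16 points.

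No gene of the later nephron was called lower. Of the 22 tested genes of the loop, distal tubule and collecting duct, 0 had a region called lower, also at the unadjusted Mann-Whitney p of the authors under 0.05, against 7.22% of all genes, and 1 was higher, against 0.45%. With no minimum difference 4 of the 22 were lower, against 51.1% of all genes. At the 7.22% of all genes a list of 22 can hold 0, so the count of called genes does not set this list apart. The difference from the proximal tubule list was not tested. The 10 regions of the list between 20% and 60% at 7 weeks had a median change of 0.601 points. A start region of Slc12a3, the thiazide-sensitive cotransporter, was at 75.9% and 65.5% and did not pass (the authors' deposited table, adjusted p = 0.0939); it was chosen after its values were seen. Of 31 tested genes of podocytes and kidney development, 3 were lower (Bmp7, Pax2 and Synpo; 9.68%, near the 7.22% of all genes) and 2 higher (Tcf21 and Wt1). Bmp7, a growth factor of nephron formation, went from 20.6% to 4.34% and Synpo, a podocyte actin protein, from 34.9% to 19.3%. Wt1, the transcription factor of podocytes, rose from 10.7% to 24.3%, and Tcf21, a factor of stroma and podocytes, from 12.1% to 23.6%.

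Markers of vessels and stroma were lower in 7 of 24 tested genes (29.2%, against 7.22% of all genes) and higher in 0 (0.45% of all genes). At 20 points 1 of the 24 was lower (1.53% of all genes), and with the authors' q-value under 0.05 it was 0 (0.28% of all genes). Col4a1, a chain of basement membrane collagen, fell from 38.8% to 14.6% (the authors' deposited table, adjusted p = 4.67e-05). Vwf, the clotting factor of endothelium, fell from 61.0% to 42.4% and Pecam1, an adhesion molecule of endothelium and leukocytes, from 49.5% to 30.9%. Acta2, Flt1, Robo4 and Tek also had a lower region. Robo4 has a pair of regions of the same length and nearly the same levels (33.1% to 19.7% and 31.9% to 20.0%) on chromosome 8, and copies of a locus in the assembly cannot be told apart from separate loci. Tie1, an endothelial receptor, was at 18.6% and 16.0%, a change of -2.56 points under the minimum. Within 20% to 60% at 7 weeks, 8 of the 11 regions of this list were lower, with a median change of -13.9 points.

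**Figure D3:**
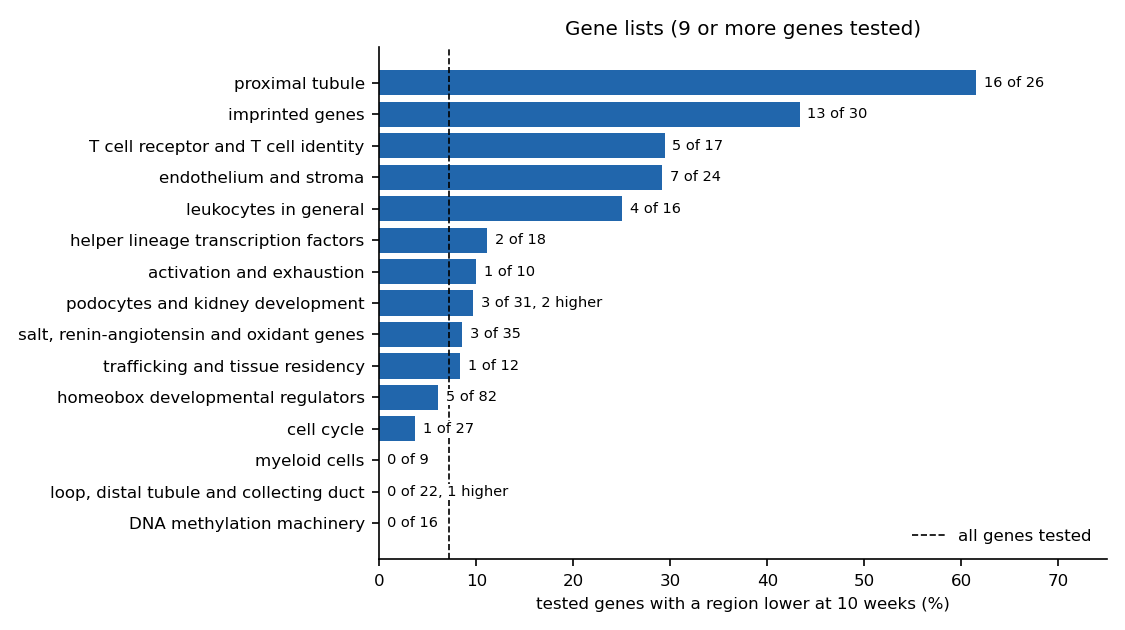
Percent of tested genes with a region lower at 10 weeks in each gene list with at least 9 tested genes; the number of lower and tested genes, and of genes with a higher region, stands beside each bar, and the dashed line marks all 9990 genes (7.22%). The proximal tubule (16 of 26) and imprinted genes (13 of 30) are at the top. The loop, distal tubule and collecting duct (0 of 22), the DNA methylation machinery (0 of 16) and myeloid cells (0 of 9) are at the bottom.

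Some imprinted genes had regions of lower methylation at 10 weeks. Of 30 tested, 13 had a region called lower (43.3%, against 7.22% of all genes) and 0 one called higher. With the authors' q-value under 0.05 the count was 3, as it was at 20 points (0.28% and 1.53% of all genes). Igf2, Kcnq1 and Cdkn1c, chosen after their values were seen, were among those with 0 lower regions. Blcap and Nnat share their region, as do Snrpn and Snurf. The lower regions number 22 of 111, and the median change over all 111 was -0.75 points. Of the 22, 18 are start regions, against 210 of the 816 lower regions with a gene and 24135 of all 30669. At the lower regions the median level was 36.4% at 7 weeks and 20.4% at 10 weeks, whereas blood T cells had medians of 41.1% (18 regions) and 41.6% (21 regions). Single blood changes ran from -22.6 to 12.6 points over the 17 regions measured in blood at both ages, with a median of -0.951. Within 20% to 60% at 7 weeks, 20 of the 39 regions of these genes were lower, with a median change of -10.5 points. Of the 17 lower regions with a blood level at both ages, blood was above kidney at 7 weeks in 14. Over all lower regions with levels of both tissues the same held in 1311 of 1480 (88.6%).

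Gnas, which encodes the alpha subunit of the stimulatory G protein and several imprinted transcripts, had the most called regions of any gene, 8 lower of 19. They lie at start sites between 178426511 and 178472320 on chromosome 3. Their levels ran from 24.0% to 41.0% at 7 weeks and from 10.5% to 25.6% at 10 weeks. The region with most CpGs of these, 35 CpGs from 178440404 to 178440759, went from 29.3% to 15.3% (the authors' deposited table, adjusted p = 1.63e-12), and another of 32 CpGs from 24.0% to 12.5%. Neighbouring regions of 1 locus come from the same libraries and are not separate replicates.

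Grb10, a growth factor receptor adaptor with the dense promoter printed above, was lower in 4 of 5 regions between 91913745 and 91914983 on chromosome 14. The one of 32 CpGs went from 33.6% to 19.6% (the authors' deposited table, adjusted p = 1.63e-12). For the one of 17 CpGs the authors' difference is -34.2 points while their levels are 56.9% and 34.5%. That difference places it among the 10 largest, and the levels would not. Plagl1, a zinc finger factor of growth, fell at a start region of 15 CpGs from 40.1% to 20.3% (the authors' deposited table, adjusted p = 6.91e-11 and q = 0.0087), where blood was at 47.6% at 10 weeks. Slc38a4, an amino acid transporter, fell in its body by 23.8 points to 36.2%. Meg3, Peg3 and Mest, named after their values were seen, went from 38.4% to 22.3%, from 41.0% to 28.0% and from 40.5% to 30.5%. A start region of Igf2r with 34 CpGs was at 23.9% and 14.4%, just under the minimum difference, and was chosen after its values were seen.

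**Figure D4:**
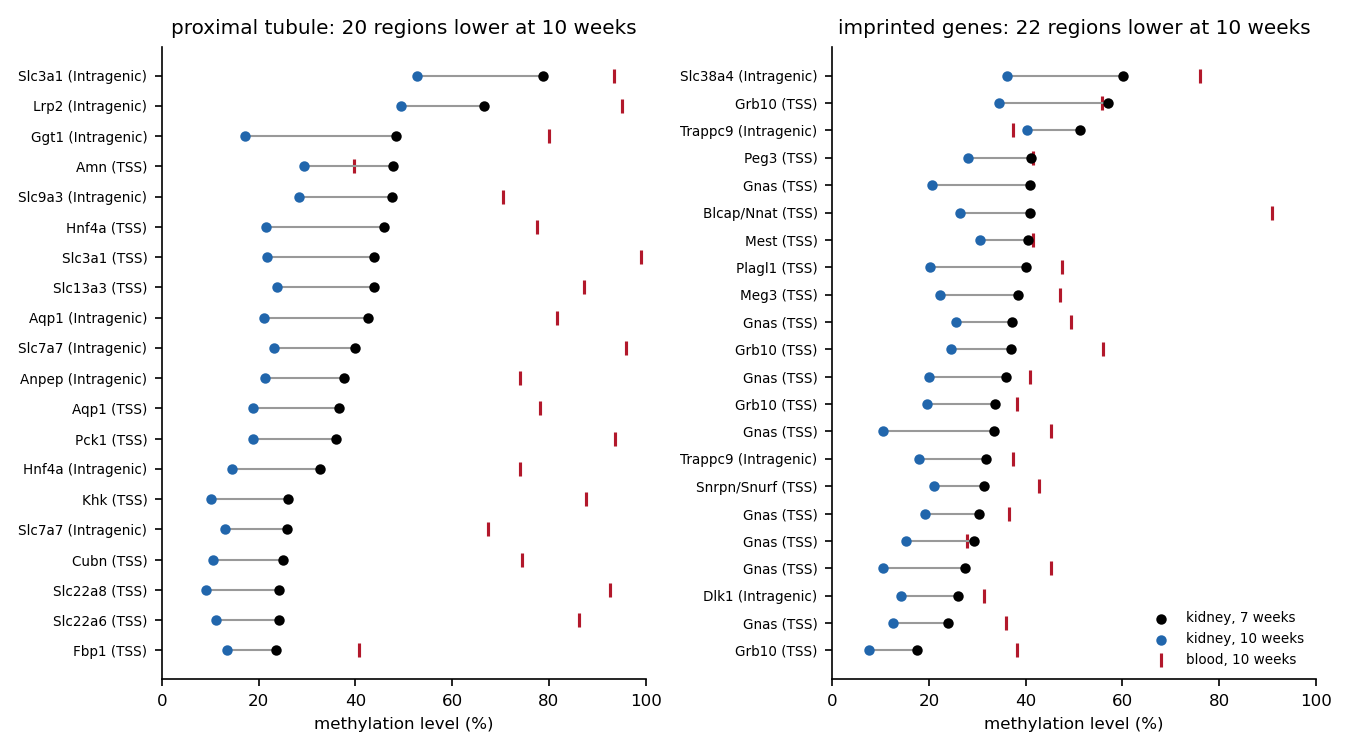
Methylation level in percent (horizontal axis) of each region called lower in the proximal tubule list (left, 20 regions) and among imprinted genes (right, 22 regions), with kidney at 7 weeks in black, kidney at 10 weeks in blue and blood at 10 weeks as a red tick where measured. Tubule regions lie below blood of 10 weeks at both kidney ages, with 1 exception at 7 weeks. Against blood of 7 weeks, not drawn, kidney at 7 weeks was lower in 19 of 19 tubule regions. Over all lower regions it was lower in 1311 of 1480 (88.6%). Imprinted regions had kidney medians of 36.4% at 7 weeks and 20.4% at 10 weeks, against 41.6% in blood at 10 weeks (21 regions).

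The label of the cells was checked against T cell and leukocyte genes. Cd3e, Cd4, Foxp3, Ifng and Il17a had no region in the table. In blood T cells 20 regions of the T cell and leukocyte lists were under 5% at both ages. In the kidney preparations at 7 weeks 9 of these were also under 5% and 8 were at 20% or more, between 26.8% and 53.0%. These limits were set after the values were seen. These 8 had medians of 38.4% at 7 weeks and 25.3% at 10 weeks, and 3 passed as calls. They were chosen for a high level at 7 weeks, so their fall is a description only. In the tables of kidney against blood, 7 of the 8 were lower at 10 weeks (a pair in Elmo1 falls in 1 region there), and Lat was not. Those levels come from the same kidney libraries, so they are no separate check of the fall. What other cells the preparations held was not tested.

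Arhgap30, a regulator of small GTPases in blood cells, fell at its start from 52.0% to 22.1% (the authors' deposited table, adjusted p = 5.44e-06), while blood stood at 0.487% and 0.176%. Elmo1, part of an activator of Rac in migrating cells, fell in its body from 48.6% to 31.3% and Ubash3a, a brake on T cell receptor signals named after its values were seen, at its start from 26.8% to 13.7%. The start of Lat, the adaptor of the T cell receptor, was at 31.2% and 23.8% and did not pass (the authors' deposited table, adjusted p = 0.261). Its level at 10 weeks in regions with other boundaries was 33.7% and 46.1% in 2 other tables, so that its change depends on the region drawn. Lcp2, another adaptor, was at 53.3% and 47.2%, and Cd8a, a chain of the CD8 co-receptor, at 5.59% and 11.1%. Neither passed.

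Over the whole T cell list 5 of 17 tested genes were lower (29.4%, against 7.22% of all genes) and 0 higher. The count was 0 at 20 points, with the authors' q-value under 0.05, and among regions of at least 10 CpGs, which leave 4 of these genes. The shares of all genes at these settings were 1.53%, 0.28% and 1.93%, so that lists this short can hold 0. Cd247, the zeta chain of the receptor, fell from 73.4% to 56.6%, and its blood level was lower than the kidney level at both ages (32.5% and 25.2%). Fyn, a kinase of T cell signalling and of many other cells, fell from 62.0% to 42.0%, Skap1, an adaptor of T cells, from 59.2% to 43.3%, and both were far more methylated in blood. Cd28 was also lower. Zap70, the kinase of the receptor, was at 35.5% and 27.1% (the authors' deposited table, adjusted p = 0.0568). Among leukocyte genes 4 of 16 were lower (Arhgap30, Cd52, Elmo1 and Wipf1), a share of 25% against 7.22% of all genes. At 20 points it was 1 and by the q-value 0 (1.53% and 0.28% of all genes). The counts of the next 3 lists lie near the 7.22% of all genes. Klf2, a factor of T cell traffic, fell at a start region of 13 CpGs from 41.0% to 29.7%, and was the only 1 of 12 tested trafficking genes with a lower region. Of the helper lineage factors, Bcl6 (32.8% to 21.6%) and Stat5b (74.9% to 63.2%) were lower of 18, and of 10 activation genes Nr4a2 (24.0% to 12.9%). A body region of Runx1, a factor of blood development, went from 12.7% to 6.00%. The authors' deposited table gives it an adjusted p of 1.73e-07, but the change of -6.73 points was under the minimum.

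Few markers of other blood cells had a region, and none of these was called. The counts were 0 of 9 tested myeloid genes, 0 of 4 B cell genes and 0 of 1 natural killer cell gene, and the same at the authors' unadjusted Mann-Whitney p under 0.05. At the 7.22% of all genes, lists this short can hold 0 or 1 lower gene, so the counts do not set them apart. With no minimum difference 2 myeloid genes and 1 natural killer cell gene were lower, against 51.1% of all genes. Itgam, an integrin of myeloid cells, was at 17.2% and 13.0% in kidney and near 75% in blood (74.8% at 7 weeks). Cytokine genes gave 0 of 3. The enzymes that write and erase methylation also gave 0 of 16 genes in either direction. Dnmt1 was at 77.2% and 76.0% in its body, and the start region of Dnmt3b with the largest change was near 0 at 7 weeks and at 0.375% at 10 weeks. A body region of Dnmt3a was at 53.9% and 43.6% (the authors' deposited table, adjusted p = 0.164). Shares near or under the 7.22% of all genes were found in the next 3 lists. Of 82 homeobox genes 5 were lower (6.10%), led by Hoxd12 (56.8% to 28.4%), which had 7.34% and 10.7% in blood. Of 35 salt, renin and oxidant genes 3 were lower (8.57%): Nr3c1, the glucocorticoid receptor (61.5% to 38.2%), Stk39, a kinase that activates sodium cotransporters (44.6% to 21.4%), and Sgk1, a kinase induced by aldosterone (39.0% to 20.2%). Of 27 cell cycle genes Cdk6 alone was lower (3.70%), in 4 of its 11 regions.

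The largest decreases in named genes reached 30 points and more. Cyp4f5, a fatty acid hydroxylase, fell from 69.4% to 32.1% (chromosome 7, 14923460 to 14923498) and from 62.9% to 26.5% at a second site. Msh5, a meiotic recombination gene, went from 71.8% to 35.7%, Srsf4, a splicing factor, from 64.5% to 29.0%, and Gpx4, the peroxidase that protects lipids, from 67.5% to 34.5%. A start region of Bhmt, which remethylates homocysteine in kidney and liver, went from 58.6% to 26.1% (the authors' deposited table, adjusted p = 5.25e-07 and q = 0.011), and its neighbour from 53.3% to 33.9%. Fbxo31, a ubiquitin ligase subunit, Myh10, a nonmuscle myosin, and Ampd2, an AMP deaminase, went from 56.3% to 24.7%, from 79.1% to 48.7% and from 52.4% to 22.4%. The largest decrease of all lay outside genes on chromosome 20 (53059478 to 53059587, 73.0% to 23.6%). Regions that overlap it in the tables of kidney against blood were at 54.3% at 7 weeks and 28.9% at 10 weeks, so that its size differed between tables. Ndufa10, a subunit of respiratory complex I, fell at 1 start region from 24.2% to 8.98%, while its other 4 start regions were at 0.387% or less at both ages. Camta1, a calmodulin-binding factor, had 7 lower of 43 regions, all in its body, and Ppil1, a peptidyl-prolyl isomerase, 4 lower and 1 higher of 19.

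Increases were fewer, and their size differed between tables joined by overlap. At equal coordinates in the tables of kidney against blood, 6 of 6 higher calls kept an increase of 10 points. At the 68 higher regions that the table of LS against HS chow covers, the medians in the age table were 40.0% at 7 weeks and 55.1% at 10 weeks, but the other table gave the same 10 week group 46.0%. At 1611 lower regions the corresponding 10 week medians were 23.8% and 23.7%. Mok, a kinase, rose from 24.4% to 43.4%, Pcsk1n, an inhibitor of a prohormone convertase, from 32.7% to 49.6%, and Pla2g3, a secreted phospholipase, from 51.2% to 68.0%. A region that the table assigns to Abl2 and Tor3a rose from 28.8% to 45.4% over 10 CpGs (the authors' deposited table, adjusted p = 3.99e-08). In the table of kidney against blood, an overlapping region of these genes was at 28.4% at 7 weeks and 30.9% at 10 weeks, and in the salt table the 10 week level was 42.8%, so that the increase was found in some tables and not in others. The cause was not tested. Gdap1l1 (38.8% to 55.3%), Hmga2 (53.8% to 69.8%), Xpr1 (59.6% to 74.9%), Anks1a (62.1% to 77.0%) and Mb21d2 (37.7% to 53.3%) completed the 10 largest. Anks1a and Mb21d2 each also had 2 regions called lower.

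Blood T cells of the same groups had few calls. In the blood table for the same ages 95 of 32843 regions were lower (0.289%) and 123 higher (0.375%), with mean levels of 39.0% and 39.1%. Of the regions lower in kidney 751 overlapped a blood region by at least 1 bp, and their median change was -14.7 points in kidney and -0.63 points in blood. There 27 were also lower in blood, 3.6% of the kidney calls, and 9 were higher in blood. The blood change was larger than 5 points, in either direction, at 208 of the 751. Of the 61 lower blood regions that the kidney table covers, 26 overlapped a lower kidney region (42.6%). Cyp4f5 was among them, at 83.1% and 62.6% in blood. A start region of Gnas went the other way, with kidney at 27.5% and 10.5% and blood at 34.1% and 46.2%. Another start region of Gnas was lower in both tissues, with kidney at 37.2% and 25.6% and blood at 64.7% and 49.6%. For increases the overlap was 3 of 52 kidney calls (5.77%) and 3 of 81 blood calls (3.7%), and 30 of the 52 changed by more than 5 points in blood. A test of the difference between tissues was not possible without values per pool.

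Regions were then sorted by tissue in rats that share no pool with these groups. The SS/CRL tables of kidney against blood gave 3761 regions at least 20 points lower in kidney on both chows. Of these, 22.7% were lower at 10 weeks in SS/MCW kidney, with a median change of -6.79 points. The 307 regions at least 20 points higher in kidney fell as well, with 19.5% called lower and a median change of -7.15 points. Where kidney and blood lay within 5 points of each other and blood was at 60% or more, 0.822% of 365 regions were lower and the median change was -1.55 points. Where both were alike and blood was under 5%, 0 of 6132 were called. In SS/MCW kidney at 7 weeks 11 of these were at 10% to 20% and 1 at 20% to 40%. Regions under 10% could not be called lower. Between 20% and 60% at 7 weeks the medians were -8.35 points for 2354 regions lower in kidney and -7.38 points for 257 higher in kidney. The 1297 regions of that range between these classes and the alike ones had a median of -5.80 points, with 14.9% called lower. Alike regions were few there, with 17, 10 and 1 at 5% to 60%, at 60% or more and under 5% in blood. Regions at least 20 points apart between the tissues thus had a median decrease at 10 weeks whichever tissue was the more methylated. Whether this goes with the tissue difference or with the level at 7 weeks was not tested.

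The other kidney groups at 10 weeks were set beside the pair of ages at the regions called lower. At the 1208 of these with a value in every table, the median level was 40.0% at 7 weeks and 23.2% at 10 weeks in SS/MCW rats on LS chow. It was 43.7% in SS/MCW rats on HS chow, 26.5% in SS/CRL rats on LS chow and 35.2% in SS/CRL rats on HS chow. Blood medians were 78.7%, 78.4% and 77.8% in the 3 LS groups shown. The regions were chosen for a low value in SS/MCW LS kidney at 10 weeks, so the comparison of the other groups with that one is not independent of the choice. Of the 1336 lower regions with an SS/CRL LS value, 71.8% lay nearer to the 10 week than to the 7 week level, and for SS/CRL HS the share was 30.6% of 1497. Over all regions between 20% and 60% at 7 weeks, called or not, the shares were 60.7% of 4255 and 32.5% of 4770. Over the 20 lower regions of the proximal tubule, HS chow gave a median of 39.2%, above the 10 week LS level in all 20 and above the 7 week level in 14. For the 34 higher regions with a value in every table the medians were 35.5% and 49.2% at the 2 ages, 42.9% on HS chow, and 36.5% and 35.5% in SS/CRL rats on LS and HS chow.

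**Figure D5:**
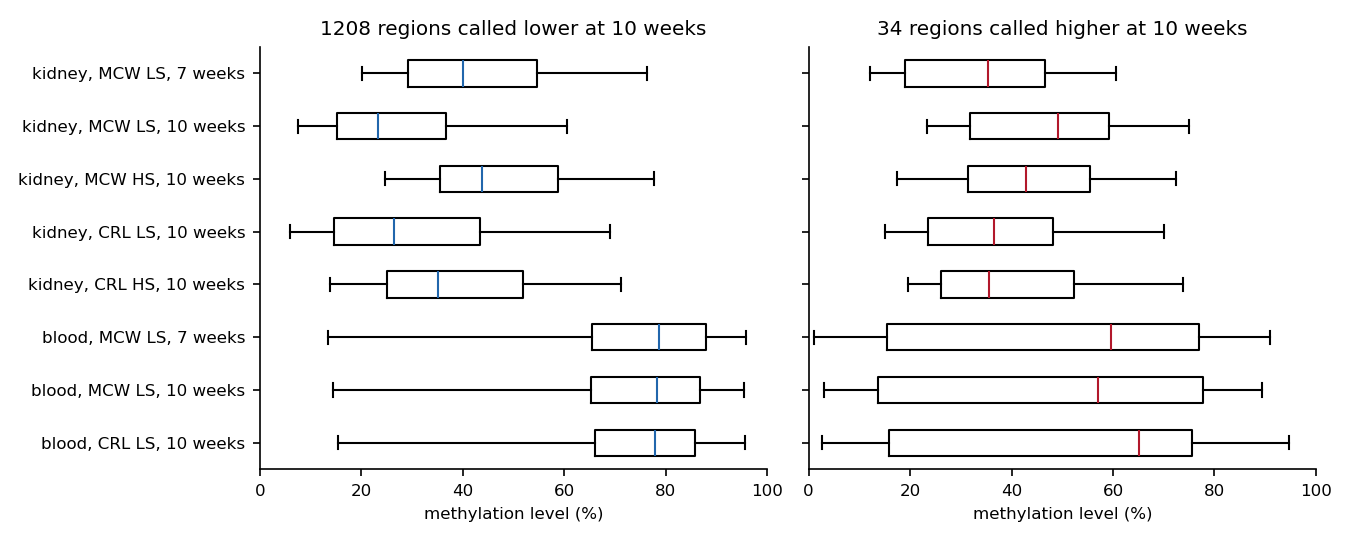
Methylation levels in percent (horizontal axis) of the regions called lower (left, 1208) and higher (right, 34) at 10 weeks that have a value in every table, by group; boxes span the quartiles with the median as a coloured line, and whiskers the 5th to 95th percentile over regions. At the lower regions the kidney medians were 40.0% and 23.2% at the 2 ages, 43.7% on HS chow and 26.5% and 35.2% in SS/CRL rats, with blood near 78%.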

How the data were processed

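Each table compares 2 groups of 4 pools and was made by the authors. Methylation levels per region are deposited as a fraction, per the file headers, and are printed in percent. The deposited tables also hold the authors' Mann-Whitney p-value, its adjusted form (checked to be the Benjamini-Hochberg adjustment, largest deviation 5.55e-16) and a separate q-value. Per the submitters' processing notes, positions are on rn5. Aligner, caller and the convention of the start coordinate: not given in the sources used here.

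Regions have at least 5 CpGs, with 5 exactly in 65.5%, and are drawn anew in each table. Tables were joined by the overlap of most bases (at least 1 bp). No model was fitted, since no table holds values per pool: 9 of the 15 tables were read with pandas 2.3.3, and the scripts were tested on simulated data. Calls need an adjusted p under 0.05 and 10 points. Levels of the 10 week group were equal within 0.01 points in 64.1% to 73.1% of the regions over 5% that other tables repeat, those of the 7 week group in 9.27% (median deviation 0.491 points). Unused columns of per-sample values number 0.

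The comparison and the 18 gene lists were chosen with earlier results of these data known. Named genes were the 10 largest changes in each direction, up to 3 genes per list and direction, the 5 genes with most calls and 26 fixed genes, of which 8 had no region. The RefSeq table of GRCr8 matched 9374 of 10001 symbols directly and 496 by 1 synonym. The 1 gene called higher in the list of the later nephron is not reported here by name.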

Additional observations from a re-analysis of the deposited data

How the results depend on the processing

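No paired analysis was possible because the ages share no pool number and the tables hold no value per pool. For the same reason no pool could be left out in turn. Depth is unknown, so no interval could be given. The direction, with more lower than higher regions, held under every setting run. With no minimum difference 10608 regions were lower and 7539 higher, with 23.2% of TSS, 21.1% of intragenic and 20.2% of intergenic regions lower. At 20 points the counts were 283 and 2 (0.128%, 1.94% and 0.696% lower in the same order). With the adjusted p under 0.01 there were 48 higher regions, and 3.03% of intergenic regions were lower. With the authors' q-value under 0.05 the counts were 41 lower and 1 higher (0.0456%, 0.275% and 0.0668%). Regions of at least 10 CpGs gave 171 lower and 11 higher, and 0.566% of TSS regions lower. The mean change was -1.36 points over all regions, -1.07 weighted by CpGs, -0.616 for regions of at least 10 CpGs and -5.33 from the 2 tables of kidney against blood. The last covers 3384 regions with equal coordinates, where the kidney table itself gave -5.38. Of 429 lower calls among them, 416 kept a decrease of 10 points in the other tables, and 6 of 6 higher calls kept an increase of 10 points. Among regions of at least 10 CpGs, 2 of 6 proximal tubule genes and 5 of 16 imprinted genes were lower, against 1.93% of 4507 genes. Leaving out regions with identical values elsewhere, a setting chosen after seeing the data, left 1633 lower and 98 higher.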

Other observations

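Some called regions lay close together. How closely the tested regions lie was not compared with this. There were 16 runs of at least 3 calls with gaps of at most 10000 bp, and 15 of them were decreases. An intergenic run on chromosome 2 (180916184 to 180917546) held 5 regions with a median change of -16.7 points. Runs also lay in Jak3, a kinase of cytokine receptors (median change -12.5 points), Nfix, a transcription factor of development (-16.1 points), and Zfp503, a zinc finger factor (-10.6 points). A run shared by Pla2g1b and Sirt4 had a median change of -16.9 points. The 1 run of increases was intergenic on chromosome 1, at 16.7 points. The genes of these runs were chosen after their values were seen.

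Ribosomal RNA repeats gave calls in both directions. The 136 regions assigned to Rn5-8s held 3 lower and 3 higher regions, and Rn28s had 1 of each among 30.

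Some regions had identical values. No sequences were compared, so copies of a locus cannot be told apart from separate loci. Values identical to those of another region in the table were found in 275 regions, of which 14 were called. The 27 regions lower in both tissues have 22 distinct pairs of blood levels, in part because neighbouring kidney regions were joined to 1 blood region. The sites of Cyp4f5 on chromosome 7 have the same blood levels, and 3 sites of Vom2r4, a vomeronasal receptor, share theirs with an intergenic site. Among regions lower in both tissues, the body of Hcn2, a pacemaker channel, was at 32.4% and 16.1% in kidney and 71.0% and 54.0% in blood over 28 CpGs. Lingo3, of a family of neuronal membrane proteins, was at 50.3% and 38.9% in kidney and 51.6% and 39.9% in blood over 17 CpGs. These genes too were chosen after their values were seen.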
